A study of Mus musculus with 15 samples.

Results

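Skin and lung epithelium were set against each other across all genes, as the contrast of a stratified barrier with a gas-exchanging one. The comparison took 6 of the 15 RNA sequencing libraries of a mouse series made to look for what lies behind the different MHC class I levels of epithelia. The groups were skin epithelial cells, with 3 libraries, and lung epithelial cells, with 3 libraries. Both came from untreated male C57BL/6J mice aged 8 weeks, and each library pooled cells from 5 mice that had been sorted by flow cytometry. The sort markers are not given in the sources used here. For skin the library kit was KAPA RNA Stranded PolyA and for lung it was KAPA RNA HyperPrep PolyA, so that kit and tissue cannot be told apart in any difference below. The other 9 libraries, of cortical and medullary thymic epithelium (Stranded kit) and of colon epithelium (HyperPrep kit), served for the spread between replicates and for comparisons within a kit. With n = 3 pools per group, p-values of the main test rest on the spread between pools within groups, estimated over all 15 libraries.

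The skin libraries held 12946533, 13035361 and 15292850 gene reads, against 38584035, 41978665 and 38561052 in lung. Gm42418, which covers ribosomal RNA repeats, took 14.8%, 4.89% and 2.18% of the gene reads in skin replicates 1, 2 and 3, against 0.979% to 1.46% in lung. In skin replicate 1 reads on the sense strand outnumbered those on the opposite strand 8.43 times, against 13.0 and 17.0 times in the other 2 skin libraries and 14.6 to 16.5 times in lung. Skin replicate 3 stood apart in another way: 89 genes there were over 8-fold above both other skin libraries, while replicate 1 had 1 such gene, replicate 2 had 5 and the lung libraries had 0 to 2. The biological coefficient of variation was 57.2% in skin and 18.3% in lung, and across genes the correlation of log2 levels was 0.920 to 0.947 within skin and 0.987 to 0.991 within lung.

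The epidermis is a layered epithelium. Basal cells divide on the basement membrane, and their daughters move outward, switch keratins and build a crosslinked envelope sealed with lipids. The alveolus is lined by a single layer in which flat type 1 cells exchange gas and cuboidal type 2 cells secrete surfactant, while ciliated and secretory cells line the airways above it.

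The marker genes matched both labels. Krt10, the acidic keratin of suprabasal epidermis (ENSMUSG00000019761.10, GRCm38 chr11:99385254-99389364, minus strand), had 11619, 15914 and 10631 CPM in skin libraries 1 to 3, against 3.75, 4.17 and 4.09 CPM in lung. CPM are gene reads scaled for library size with TMM factors, and they compare libraries, not genes of different length. All 3 skin libraries lay far above all 3 lung libraries, with a log2 fold change of 11.63 ± 0.47 (SE; edgeR quasi-likelihood test, Benjamini-Hochberg adjusted p = 1.3e-10). Sftpc, the surfactant protein C of type 2 cells (ENSMUSG00000022097.3, chr14:70520949-70524081, minus strand), had 30.8, 2.56 and 6.67 CPM in skin and 11111, 5352 and 4309 CPM in lung, a log2 fold change of -9.03 ± 1.24 (adjusted p = 1.8e-05). Cldn18, a claudin whose lung form seals alveolar cells (ENSMUSG00000032473.13, chr9:99689461-99717267, minus strand), had 1.13, 0.0884 and 0 CPM in skin and 4100.4, 4379 and 4489 CPM in lung (log2 fold change -13.57 ± 0.70, adjusted p = 1.1e-09). For both genes the trace in skin was highest in replicate 1, and without that library the log2 fold change was -10.53 for Sftpc and -16.67 for Cldn18. Without skin replicate 3, the library with no Cldn18 read, that of Cldn18 was -12.83. Epcam, the adhesion molecule of many epithelia, had 176, 249 and 249 CPM in skin and 207, 176 and 174 CPM in lung and passed no test (log2 fold change 0.27 ± 0.20, adjusted p = 0.26). Cdh1, which encodes E-cadherin, had 1092, 1213 and 848 CPM in skin and 1460.4, 1437 and 1395 CPM in lung. Its log2 fold change of -0.45 ± 0.17 passed at an adjusted p of 0.037 with all 15 libraries in the fit, but not with the 6 skin and lung libraries alone (adjusted p = 0.17), nor without skin replicate 1 or 3 or any single lung library. Of 16 genes shared by epithelia 4 were higher in skin and 6 in lung, with a median of -0.02. These counts were close to the 26.7% and 33.7% of all genes tested.

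**Figure D1:**
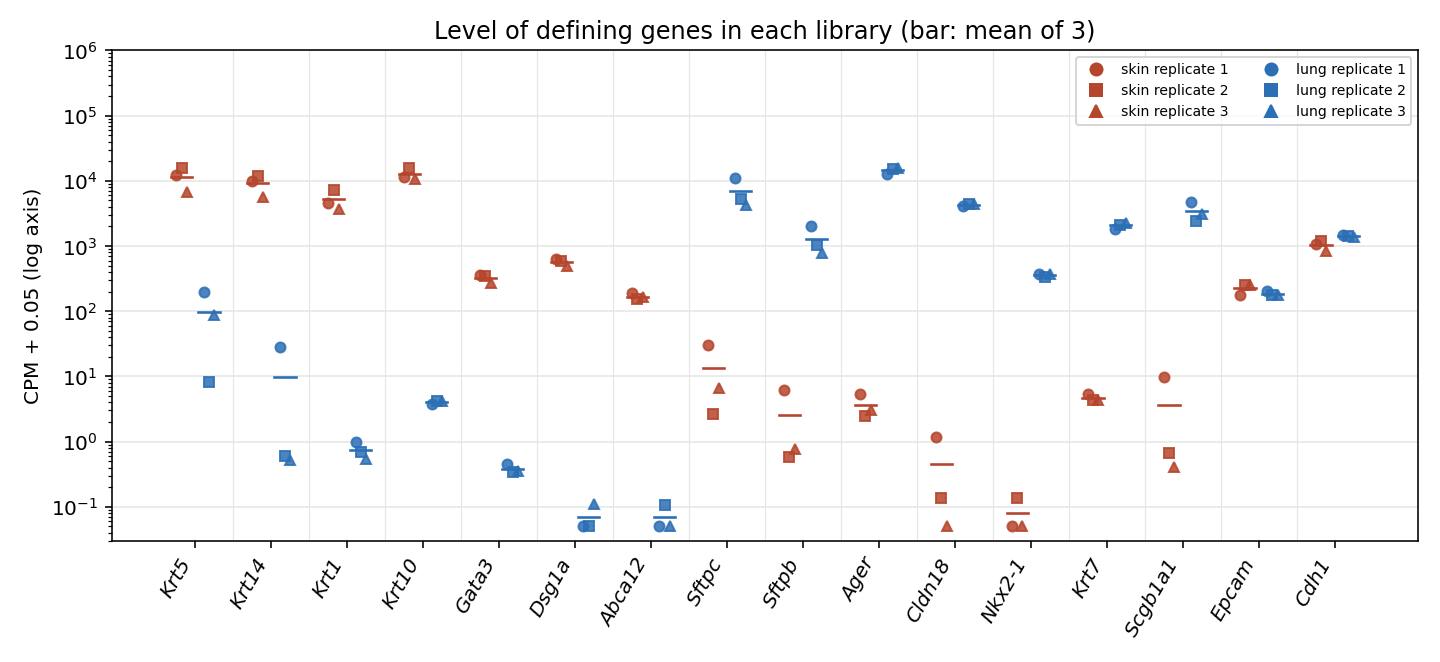
Levels of marker genes in the 6 libraries, as CPM plus 0.05 on a log axis; red symbols on the left are skin, blue symbols on the right are lung, the symbol shape is the replicate and the bar is the mean of 3. Keratinocyte genes such as Krt10 (10631 to 15914 CPM in skin) and alveolar genes such as Cldn18 (4100.4 to 4489 CPM in lung) separate the groups, while Epcam overlaps between them.

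Of 19107 genes tested, 5101 (26.7%) were higher in skin and 6437 (33.7%) were higher in lung at an adjusted p under 0.05, and the median log2 fold change over all genes was -0.15. With upper quartile scaling in place of TMM that median was 0 and the calls were 5733 and 5816, so that the split between the directions moved with the scaling. The differences were large: 769 calls toward skin and 1193 toward lung passed an absolute log2 fold change of 5. A fit that gave each group its own spread, which was added after the data had been seen, called 4289 genes higher in skin (22.4%) and 5689 higher in lung (29.8%). RSEM estimates called 5187 (26.5%) and 6592 (33.7%), and the 6 skin and lung libraries alone called 4418 (27.7%) and 4939 (31.0%). The same call came from the main test, the 6 libraries alone, RSEM estimates and the spread per group for 3821 genes higher in skin and 4601 higher in lung. In 24.5% of genes all 3 skin libraries lay above all 3 lung libraries, and in 37.2% all 3 lay below. The counts of the gene lists below stand against 26.7% higher in skin and 33.7% higher in lung over all genes tested.

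Among abundant genes with reads on both sides, the 15 largest log2 fold changes toward skin ran from 9.91 to 13.82. They held the suprabasal keratins Krt1 (12.86) and Krt10, the stress keratin Krt16 (12.01) and Krt78 (10.24), with the protease inhibitor Serpinb2 (13.82), the galectin Lgals7 (12.40) and the LY6 family members Lypd3 (12.55) and Ly6d (10.98). Asprv1 (10.16), the protease that processes filaggrin, Alox12e (10.04), an epidermal lipoxygenase, Them5 (10.69), Fam25c (10.48) and the transcription factors Pou2f3 (10.82) and Gata3 (9.91) followed. The remaining gene, the ribosomal protein gene Rps29, had a log2 fold change of 10.41 by read counts but 2.79 by RSEM estimates. Toward lung the 15 ran from -9.16 to -13.62 and were led by Sec14l3 (-13.62), a lipid-binding protein gene, Cldn18 and Ager (-12.00), the receptor for advanced glycation end products that marks type 1 cells. Col4a3 (-11.82) encodes a collagen IV chain, Aqp5 (-11.64) a water channel, Akap5 (-11.49) an anchor of protein kinase A, Clic5 (-11.03) a chloride intracellular channel protein and Scnn1b (-9.56) a sodium channel subunit. Ndnf (-11.08), Rtkn2 (-10.35), Serpinb6b (-9.95), Sema3a (-9.80), Myo5c (-9.48), Fam174b (-9.16) and Scgb1a1 (-9.97), the club cell secretoglobin, completed them. Some of these values moved by over 1.5-fold with a single library: without lung replicate 1 Serpinb2 was 15.06, Krt16 14.59, Lypd3 13.66, Lgals7 13.17, Ly6d 11.89, Alox12e 11.42 and Krt78 10.92. Without lung replicate 2, which had no read of either gene, Serpinb2 was 13.21 and Krt16 11.39. Without skin replicate 3 Rtkn2 was -13.93, Col4a3 -12.44, Myo5c -10.51 and Serpinb6b -9.21. Without skin replicate 2 Serpinb6b was -12.10, and without skin replicate 1 Scgb1a1 was -12.83 and Sec14l3 -14.59. The direction and the call of these genes held without each single library.

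By TPM, which allows for gene length, the protein-coding leaders in skin were Krtdap (8168 ± 2097 TPM, SD, n = 3), Krt14 (7718 ± 1886) and Krt10 (7389.8 ± 1279). In lung the same genes had 0, 8.34 ± 13.5 and 8.54 ± 1.43 TPM. Ager and Scgb1a1 stood at 3.11 ± 1.23 and 9.20 ± 13.3 TPM in skin, against 15174 ± 2075 and 12044 ± 3921 TPM in lung. Each tissue thus had its own few leading transcripts, in lung beside the mitochondrial mt-Co1 (3295 ± 1521 TPM in skin, 24132 ± 6091 TPM in lung).

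The promoters of 2 epidermal genes are shown because they carry the letters that recurred among epidermal genes, and those of 2 alveolar genes for contrast. Each is the 250 bases before the RefSeq start (GRCm38.p6), 5′ to 3′ on the gene's strand, at chr11:99389365-99389614 (minus) for Krt10, chr7:30787655-30787904 (plus) for Krtdap, chr6:72304360-72304609 (plus) for Sftpb and chr9:99717268-99717517 (minus) for Cldn18, where it is the start farther upstream of 2. Capitals mark the TATA box and AP-1 motifs in the epidermal pair, the NK2 core motif in Sftpb and the forkhead motif, read on the other strand, in Cldn18.
Krt10: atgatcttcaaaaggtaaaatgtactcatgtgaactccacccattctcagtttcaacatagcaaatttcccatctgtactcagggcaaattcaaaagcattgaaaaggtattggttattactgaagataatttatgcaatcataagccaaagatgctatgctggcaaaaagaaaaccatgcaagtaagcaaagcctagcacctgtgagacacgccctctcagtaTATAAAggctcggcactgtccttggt
Krtdap: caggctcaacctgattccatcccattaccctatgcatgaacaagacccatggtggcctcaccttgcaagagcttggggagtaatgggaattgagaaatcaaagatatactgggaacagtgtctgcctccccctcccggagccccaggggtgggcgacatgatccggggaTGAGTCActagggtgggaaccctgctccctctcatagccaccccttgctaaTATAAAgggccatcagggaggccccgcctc
Sftpb: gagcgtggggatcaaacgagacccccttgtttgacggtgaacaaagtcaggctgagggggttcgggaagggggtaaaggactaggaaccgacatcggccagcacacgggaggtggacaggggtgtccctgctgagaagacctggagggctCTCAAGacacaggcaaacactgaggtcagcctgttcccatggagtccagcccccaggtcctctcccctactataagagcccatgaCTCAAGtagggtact
Cldn18: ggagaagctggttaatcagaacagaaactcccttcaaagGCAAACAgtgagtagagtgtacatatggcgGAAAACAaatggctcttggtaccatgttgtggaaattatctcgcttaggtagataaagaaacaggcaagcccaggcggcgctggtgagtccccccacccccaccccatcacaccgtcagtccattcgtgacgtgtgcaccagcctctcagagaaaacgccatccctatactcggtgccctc
In Krt10 the TATA letters lie 21 to 26 bases before the start. In Krtdap they lie 25 to 30 bases before it, with TGAGTCA at 75 to 81. In Sftpb, CTCAAG lies at 10 to 15 and at 95 to 100 bases before the start, and the uncapitalised TGACTCA (at 12 to 18, overlapping the nearer CTCAAG) and GCAAACA (at 82 to 88) are also there. In Cldn18 the forkhead letters lie at 175 to 181 and 205 to 211 bases before the start. Genes were counted, and a gene with several listed starts counted when the promoter of any of them held the letters. Searched on both strands, the TATA box letters TATAAA stood in 16 of 48 basal, spinous, cornified and lipid barrier genes (33.3%). They stood in 5 of 32 alveolar genes (15.6%) and in 9.68% of the 13502 tested genes with a promoter. The AP-1 letters TGANTCA stood in 15 of the 48 (31.2%), 2 of the 32 (6.25%) and 6.39% of the tested genes. The NK2 core CTCAAG was in 12.5%, 21.9% and 14.9% of the same 3 sets. The forkhead letters TGTTTNC were in 29.2%, 28.1% and 16.4%, and the TFAP2 letters GCCNNNGGC in 8.33%, 21.9% and 22.2%. These are counts of letters, not of bound sites. No promoter was matched for Krt1 and Sftpc.

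The layers of the epidermis differed in how far they set skin apart. Of 15 genes of the basal layer, 9 were higher in skin and 4 were higher in lung, against 26.7% and 33.7% of all genes. Their median log2 fold change was 2.93. Krt14, the basal acidic keratin, had 9829, 12075 and 5590.3 CPM in skin and 28.2, 0.55 and 0.464 CPM in lung, and its partner Krt5 had 12141, 15592 and 6638 CPM in skin and 197, 8.04 and 88.3 CPM in lung. No lung library reached a skin library, but lung replicate 1 carried most of the lung signal. The log2 fold change was 9.88 ± 1.38 for Krt14 (14.10 without lung replicate 1) and 6.87 ± 0.89 for Krt5 (7.88 without it). Krt15 (5.80), the hemidesmosomal collagen Col17a1 (6.55) and the p63 gene Trp63 (3.41 ± 0.57, adjusted p = 0.00012) were also highest in lung replicate 1 among the lung libraries and stood at 6.63, 7.30 and 4.51 without replicate 1. Among the 4 genes higher in lung were the laminin chain genes Lama3 (-3.34 ± 0.36) and Lamb3 (-1.38 ± 0.25) and the integrin chain gene Itga3 (-1.97 ± 0.19). Itga6 and Itgb4, the hemidesmosomal integrin chains, were higher in skin (3.61 ± 0.31 and 2.93 ± 0.36), and Itgb4 moved to 3.53 without lung replicate 1.

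All 15 spinous layer genes were higher in skin, with a median log2 fold change of 11.68, against 26.7% of all genes. Krtdap, the keratinocyte differentiation-associated protein gene, had 2045, 2703 and 1231 CPM in skin and no read in any lung library, so that it was at least 66038-fold higher in skin with lung set at 3 reads over the group. Krt1, the partner of Krt10, had 4636, 7254 and 3692 CPM in skin and 0.953, 0.636 and 0.495 CPM in lung (log2 fold change 12.86 ± 0.67, adjusted p = 1.1e-09). Krt77 had 9475, 10776 and 6461 CPM in skin, against 1 lung library with 0.0308 CPM and 2 at 0. The desmosomal cadherin genes Dsg1a (493 to 641 CPM in skin, 0 to 0.0619 CPM in lung) and Dsc1 (37.9 to 78.9 CPM in skin, 0 to 0.0308 CPM in lung) and Dmkn (2249 to 3398 CPM in skin, 21.7 to 34.9 CPM in lung) had no overlap of libraries either. Krt6a, a keratin of hair follicles and wounds, had 15.2, 43.5 and 319 CPM in skin and 2.55, 0.434 and 2.2 CPM in lung. Its log2 fold change of 6.19 fell to 4.08 without skin replicate 3.

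**Figure D2:**
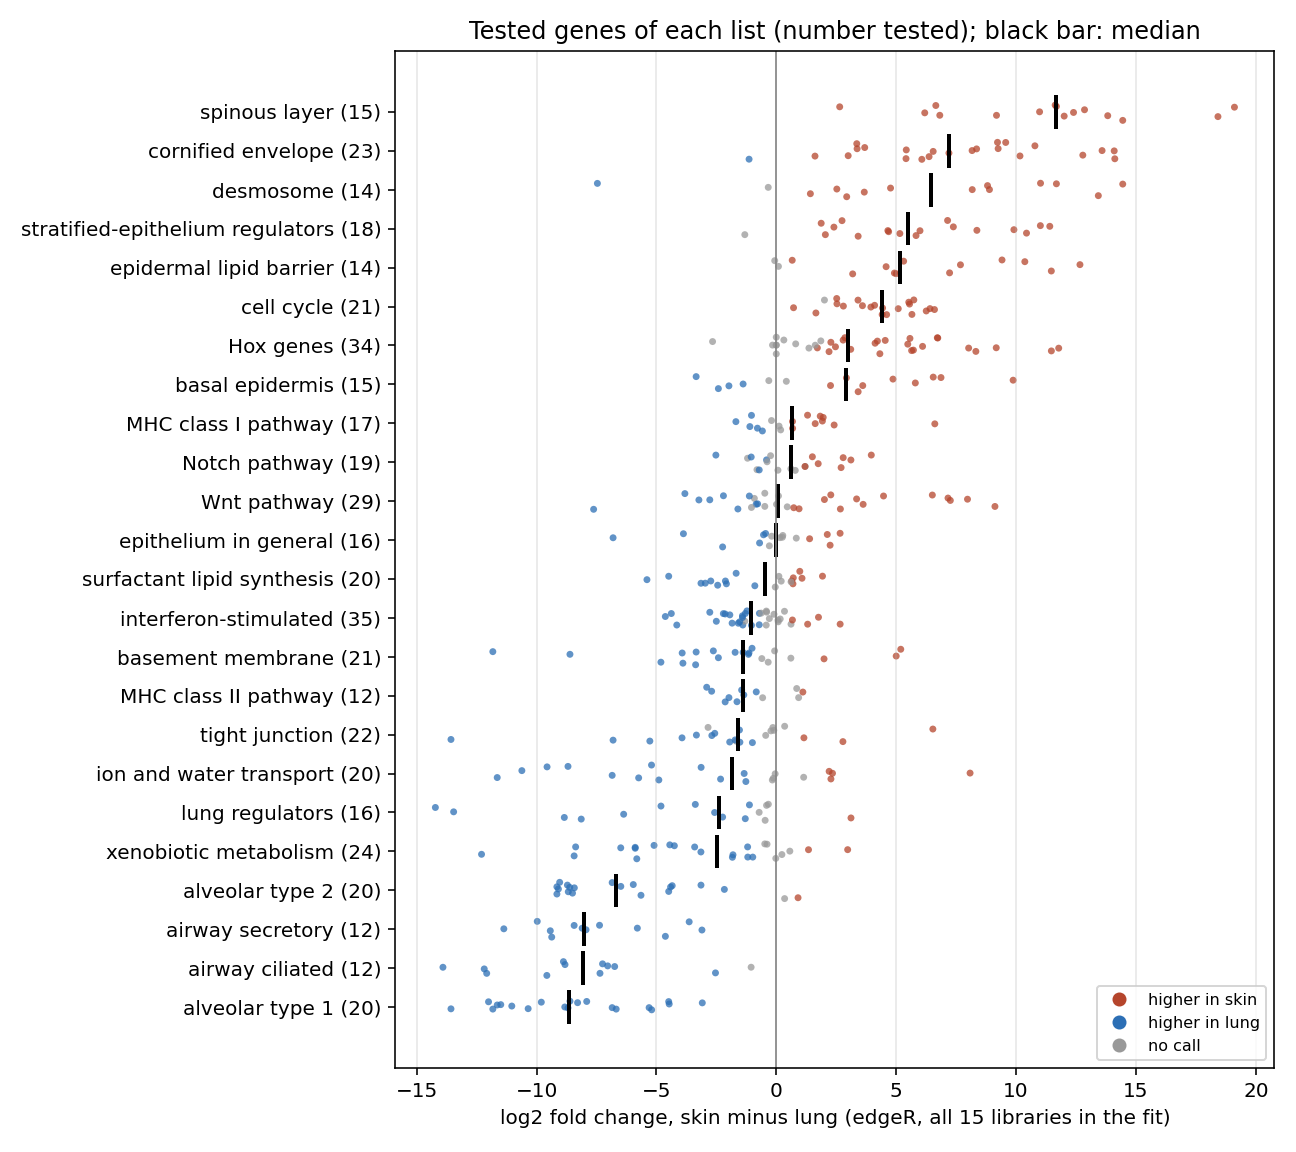
Log2 fold change of skin over lung for each tested gene of 24 gene lists, a list per row, with a black bar at the list's median. Red points were higher in skin, blue points higher in lung and grey points were not called. Spinous genes sit wholly to the right (median 11.68) and type 1 genes wholly to the left (median -8.65).

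Of 26 genes of the cornified envelope 23 were tested; 22 were higher in skin, and the median log2 fold change was 7.20, or 6.07 with genes that had no lung read at their bound. The proteases of desquamation Klk5 (99.6, 126 and 72.4 CPM in skin, none in lung) and Klk7 (45.6, 77.2 and 209.6 CPM in skin, 0, 0.0289 and 0 CPM in lung) and the caspase Casp14 (49.3, 88 and 72.4 CPM in skin, none in lung) were high in every skin library. Klk5 was at least 3292-fold higher in skin and Casp14 at least 2316-fold. Levels of the last envelope genes were low and uneven. Flg, the filaggrin gene, had 0, 0.619 and 9.34 CPM in skin and no read in lung, and Lor, which encodes loricrin, had 28.2, 36 and 101 CPM in skin and 1.2, 1.24 and 1.39 CPM in lung. Flg overlapped with lung through the skin library at 0, and its log2 fold change of 9.23 was 5.83 without skin replicate 3 and 9.84 without skin replicate 1. With no Flg read in lung, the sizes of these values come from the fit and are not measured folds. Ivl (3.37 ± 0.53) for involucrin and Tgm1 (3.36 ± 0.42) for the crosslinking transglutaminase were higher in skin with lung at 4.77 to 9.9 CPM. Scel, the sciellin gene, was the exception, with 243, 262 and 249 CPM in skin and 423, 708 and 525 CPM in lung (log2 fold change -1.13 ± 0.26, adjusted p = 0.0017). Rptn, for repetin, passed the test, but its log2 fold change was 1.90 with no call without skin replicate 3 and 5.08 without lung replicate 1, and the call was also lost without lung replicate 2 or 3.

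Of 14 genes of the lipid barrier, 12 were higher in skin and none in lung, with a median of 5.16. Abca12, which loads glucosylceramide into lamellar granules, had 187, 152 and 164 CPM in skin and 0, 0.0579 and 0 CPM in lung (log2 fold change 12.67 ± 0.96, adjusted p = 4.4e-08; 14.78 without lung replicate 2). The lipoxygenase Alox12b had 23, 47.7 and 63.3 CPM in skin and 0.0308, 0 and 0 CPM in lung. Elovl4, which makes very long fatty acids (7.68 ± 0.48), and Cers3, the ceramide synthase that uses them (3.19 ± 0.24), were higher in skin too. Cyp4f39 (-0.06) did not pass.

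Hair follicle and sebaceous gland genes differed among the skin libraries. Of 18 hair follicle genes 14 were higher in skin, with a median log2 fold change of 7.22, which was 3.97 without skin replicate 3. All 3 skin libraries lay above all 3 lung libraries in 7 of the 18 (24.5% of all genes). Among all called genes of either direction, 10650 had no overlap of libraries and 888 did, so overlap was common among the 14. The DESeq2 Wald test called 9 of the 18 higher in skin. Krt71, a keratin of the inner root sheath, had 0, 0.265 and 565 CPM in skin replicates 1, 2 and 3, Krt25, from the same sheath, had 1.04, 0.53 and 378 CPM, and Krt35, a hair shaft keratin, had 1.13, 0 and 129 CPM. All 3 genes had no read in lung. Nearly all of their signal came from replicate 3, and without it the log2 fold change fell to 4.65 for Krt71 and 7.11 for Krt25, against 15.02 and 14.45 with it. Without skin replicate 1 they were 15.65 and 15.07. As lung had no read of either gene, the sizes of these values come from the fit and are not measured folds. By the width of their range in skin, Krt71, Krt75 (0, 0.707 and 185 CPM), Krt35, Krt73 (0, 0 and 112 CPM), Krt27 (0, 0.177 and 72.9 CPM), Lhx2 (0, 5.66 and 65.6 CPM), Krt6b (0, 0.53 and 65.1 CPM), Hoxc13 (0, 1.59 and 57.9 CPM), Slc7a8 (4.14, 0.354 and 273 CPM) and Krt25 led all genes with at least 10 CPM in 1 skin library. Apart from the amino acid transporter gene Slc7a8, these were keratins and the homeobox genes Lhx2 and Hoxc13, and each was highest in replicate 3. Shh, the hedgehog ligand, had 0, 0.177 and 39.4 CPM in skin and 14.7, 15.3 and 13.9 CPM in lung, and it had no call (-0.13 ± 1.18, adjusted p = 0.95). Without skin replicate 3 it was called higher in lung (-7.26). Hair-associated genes spread more evenly over the skin libraries included Krt79 (375, 709 and 703 CPM in skin, 0.861 to 2.44 CPM in lung), Krt17 (1088, 1368 and 1802 CPM in skin, 8.19 to 99.2 CPM in lung; log2 fold change 4.87, or 5.92 without lung replicate 1) and Sox9 (70.5, 123 and 161 CPM in skin, 4.12 to 9.9 CPM in lung). Trps1 (-1.71, or -2.39 without skin replicate 3) and the growth factor gene Fgf18 (-5.27, or -5.94 without skin replicate 2) were higher in lung.

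Of 9 sebaceous genes tested, 6 were higher in skin and 1, Scd1 (-0.89), in lung (median 2.05). The call of Scd1 was lost without skin replicate 1 or 3 or lung replicate 1, and with a spread per group. The 10 genes of the list summed to 375, 806 and 333 CPM in skin replicates 1, 2 and 3. In lung replicates 1, 2 and 3 they summed to 1098, 741 and 515 CPM. The highest skin library of the following genes was replicate 2. Fa2h, a fatty acid hydroxylase, had 8.94, 89.9 and 9.04 CPM in skin replicates 1, 2 and 3 and 0 to 0.0868 CPM in lung. Far2, which makes wax alcohols, had 4.14, 30.1 and 4.85 CPM in skin and 0.4 to 0.619 CPM in lung, and Elovl3 had 2.92, 16.2 and 2.61 CPM in skin and none in lung. Without replicate 2 the log2 fold changes were 7.61 for Fa2h, 3.16 for Far2 and 8.97 for Elovl3, against 9.61, 4.70 and 10.31 with it, and without lung replicate 2 Fa2h was 10.70. As lung had no read of Elovl3, the sizes of its values come from the fit.

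**Figure D3:**
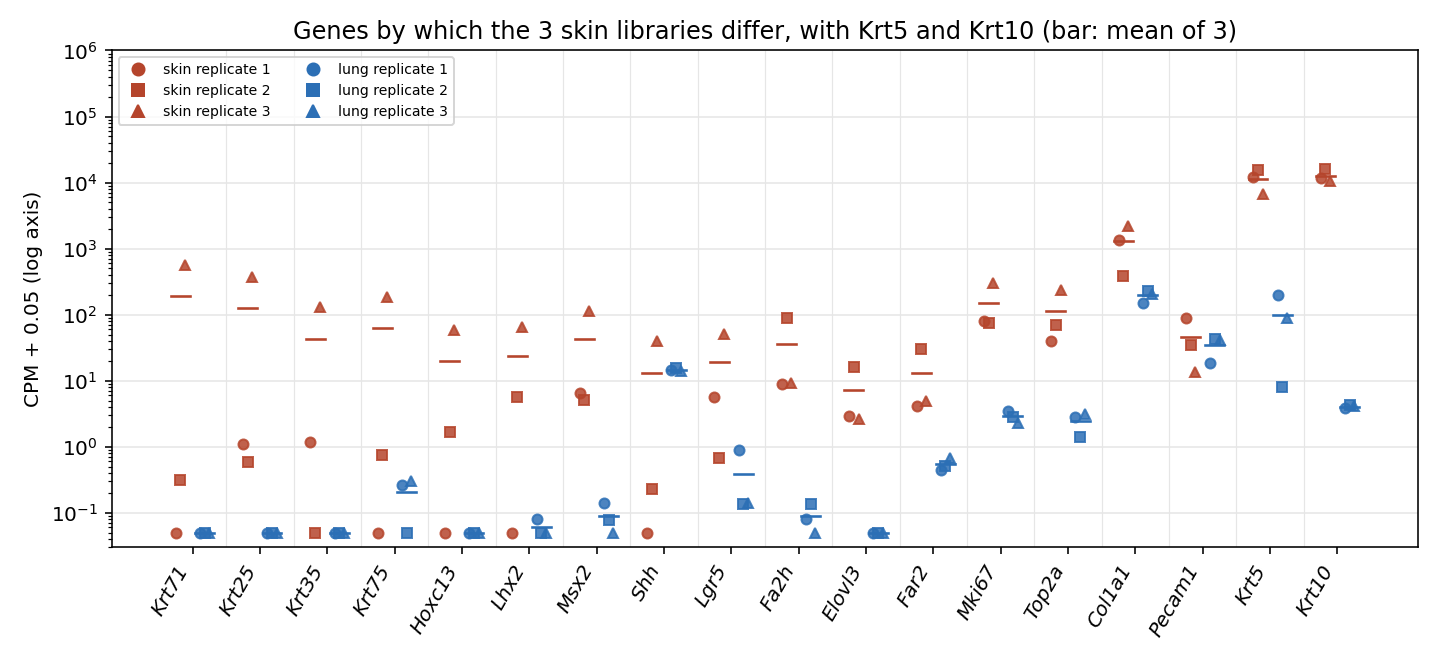
CPM plus 0.05 on a log axis for genes whose levels differ among the skin libraries, with Krt5 and Krt10 for comparison; red symbols on the left are skin and blue on the right are lung, with the replicate as the shape. Hair keratins such as Krt71 reach 565 CPM in skin replicate 3 and 0 to 0.265 CPM in the other skin libraries, and Fa2h reaches 89.9 CPM in skin replicate 2.

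Transcription factors followed the same division. Of 18 regulators of stratified epithelium 17 were higher in skin and none in lung, with a median log2 fold change of 5.49. Gata3 had 358, 343 and 276 CPM in skin and 0.4, 0.289 and 0.309 CPM in lung (log2 fold change 9.91 ± 0.30, adjusted p = 1.3e-11). Tfap2c (192, 219.9 and 124 CPM in skin, 0.0289 to 0.123 CPM in lung) and Tfap2b (67.4 to 73 CPM in skin, 0 to 0.0615 CPM in lung), of the AP-2 family, were close to absent in lung. Zfp750 (7.15 ± 0.21), Ovol1 (5.99 ± 0.39), Grhl3 (4.69 ± 0.31) and Grhl1 (4.65 ± 0.17), regulators of terminal differentiation, were higher in skin over a low lung level of 2.63 to 13 CPM. Klf4 (2.05 ± 0.30) was higher in skin as well, at 1446, 1799 and 1495 CPM in skin and 371, 387 and 389 CPM in lung. Dlx3, a homeobox gene of hair and epidermis, had 1.41, 6.63 and 266 CPM in skin and 0 to 0.155 CPM in lung, and its log2 fold change of 10.44 was 5.93 without skin replicate 3 and 12.09 without lung replicate 3.

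Of 39 Hox genes, which record position along the body, 34 were tested; 23 were higher in skin and none in lung, with a median of 2.98, or 2.83 with lung at its bound. Hoxc8 had 13.6, 20.5 and 14.4 CPM in skin and no read in lung, at least 535-fold higher in skin, and Hoxa7 had 105, 70.4 and 39.5 CPM in skin and 1.32, 1.85 and 1.3 CPM in lung (log2 fold change 5.58 ± 0.37). Hoxa5, a regulator of lung development, had 15.2, 6.1 and 8.01 CPM in skin and 8.27, 11.9 and 12.4 CPM in lung (log2 fold change -0.16, adjusted p = 0.75).

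On the lung side the regulators were Nkx2-1, the master regulator of lung epithelium, with 0, 0.0884 and 0 CPM in skin and 370.1, 332 and 368 CPM in lung (log2 fold change -13.46 ± 0.65, adjusted p = 5.4e-10; -16.00 without skin replicate 2, the skin library with a read, and -12.78 without skin replicate 3), and the forkhead factor Foxa2, with no read in skin and 103, 116 and 105 CPM in lung, at least 1385-fold higher in lung. Without skin replicate 2 no skin read of Nkx2-1 was left, so the size of -16.00 comes from the fit and is not a measured fold. Foxa1 (-6.36, or -7.16 without skin replicate 3) and Gata6 (-4.81 ± 0.37) were also higher in lung. Of 16 lung regulators, 11 were higher in lung and 1 in skin, with a median of -2.40. The gene higher in skin was Cebpa, a regulator of fat and keratinocyte differentiation as well as of type 2 cells, with 313, 469 and 371 CPM in skin and 67.4, 35.3 and 30.3 CPM in lung (log2 fold change 3.12 ± 0.27, adjusted p = 2e-07). The call of Id2 toward lung (-1.12) was lost without skin replicate 1 or 2 or lung replicate 1 or 2, and without skin replicate 3 it was -1.996.

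All 20 type 1 genes were higher in lung, with a median log2 fold change of -8.65, against 33.7% of all genes. Ager had 5.27, 2.39 and 3.03 CPM in skin and 12639, 15365 and 15493 CPM in lung (log2 fold change -12.00 ± 0.50, adjusted p = 1.6e-10). Aqp5 had 0.941, 0.0884 and 0.667 CPM in skin and 1708, 1797 and 2002 CPM in lung. Vegfa, the growth factor of the neighbouring capillaries, had 50.6, 37.8 and 74.9 CPM in skin and 4939, 6063 and 5728 CPM in lung (-6.68 ± 0.31). The smallest differences were those of Emp2, a membrane protein gene (698, 788 and 576 CPM in skin, 5391, 6092 and 6025 CPM in lung; -3.09 ± 0.20), Cav1 for caveolin (-4.47 ± 0.46) and Hopx (150.0, 224 and 197 CPM in skin, 3616, 4403 and 4772 CPM in lung; -4.49 ± 0.42). Hopx and Emp2 thus had levels above 100 CPM in skin, where Hopx is also known in hair follicle stem cells. Pdpn, for podoplanin (-5.30), was -6.13 without skin replicate 3.

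Of 20 type 2 genes 18 were higher in lung, with a median of -6.66. Sftpb, surfactant protein B, had 6.21, 0.53 and 0.728 CPM in skin and 2009, 1045 and 794 CPM in lung (-9.09 ± 0.94, or -10.96 without skin replicate 1). Sftpa1 had 5.93, 1.59 and 2.43 CPM in skin and 2113, 1194 and 789 CPM in lung, and Lamp3, of lamellar bodies, had 1.13, 0.0884 and 0 CPM in skin and 309, 192 and 104 CPM in lung. In each of these genes lung replicate 1 was highest and replicate 3 lowest. Abca3, the lipid pump of lamellar bodies, differed less, with 45.8, 42.7 and 50.1 CPM in skin and 472, 387 and 363 CPM in lung (-3.14 ± 0.18). Sftpa1 had a log2 fold change of -8.71, or -9.39 without skin replicate 1, and Lamp3 one of -9.15, or -12.25 without skin replicate 1 and -8.41 without skin replicate 3. Fgfr2, a receptor of both epithelia, did not pass (353, 400.1 and 240.2 CPM in skin, 296, 237 and 248 CPM in lung; 0.35 ± 0.18, adjusted p = 0.11), though it did without skin replicate 3. The vesicle gene Rab27a had a call toward skin at 0.91 (adjusted p = 0.047) with overlapping libraries. That call was lost in the fit with a spread per group (adjusted p = 0.23) and without skin replicate 1 or 2 or lung replicate 2 or 3.

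Of 20 genes of surfactant lipid synthesis 6 were higher in skin and 10 in lung, with a median of -0.47, against 26.7% and 33.7% of all genes. The genes of phosphatidylcholine synthesis leaned to lung, with Lpcat1 at 4.05, 5.74 and 18.5 CPM in skin and 283, 208 and 159 CPM in lung (-4.49 ± 0.44, or -5.47 without skin replicate 3), and Pcyt1a (-2.12 ± 0.14), Chka (-2.96 ± 0.27) and Chpt1 (-5.39, or -6.06 without skin replicate 3) in the same direction. Of the genes of sterol synthesis and its control, Srebf2 (0.98 ± 0.13) and Sqle (1.07 ± 0.19) were higher in skin. Fasn, fatty acid synthase, did not pass (-0.04 ± 0.24).

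The lung libraries also held airway cells. All 12 secretory genes were higher in lung, with a median of -8.01, or -7.65 with skin at its bound. Scgb1a1 had 9.88, 0.619 and 0.364 CPM in skin and 4809, 2439.9 and 3112 CPM in lung, and Bpifa1, a secreted protein of the upper airway, had 0, 0.177 and 0 CPM in skin and 286, 11.7 and 159.6 CPM in lung. Bpifa1 thus varied over 20-fold among lung libraries, its log2 fold change was -11.36 (-14.77 without skin replicate 2 and -10.54 without lung replicate 1), and its call was lost with a spread per group (adjusted p = 0.25). Of 12 ciliated cell genes 11 were higher in lung, with a median of -8.08, or -7.82 with skin at its bound. Foxj1, the regulator of motile cilia, had 0.376, 0.619 and 1.46 CPM in skin and 157, 111 and 78.6 CPM in lung (-7.03, or -7.84 without skin replicate 3), and the dynein gene Dnah5 had no read in skin and 54.3 to 108 CPM in lung, at least 1113-fold higher in lung. In bulk samples fewer cells of a type and less RNA per cell cannot be told apart.

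Adhesion systems divided by structure. Of 14 desmosome genes 12 were higher in skin and 1 in lung, with a median log2 fold change of 6.47, or 5.60 with lung at its bound, and 4.38 without skin replicate 3. Pkp1, a plakophilin of suprabasal epidermis, had 1546, 2139 and 1236 CPM in skin and 11.4, 0.636 and 5.01 CPM in lung (8.17 ± 0.73, or 9.17 without lung replicate 1). Pkp2, the plakophilin of simple epithelia and heart, had 1.13, 0.354 and 2.55 CPM in skin and 228, 269 and 266 CPM in lung (-7.46 ± 0.43, or -8.44 without skin replicate 3). Within the plakophilins the order of the tissues was therefore opposite. Dsc3 had 1205, 1152 and 988 CPM in skin and 0.434 to 5.04 CPM in lung (8.81, or 9.84 without lung replicate 1), and the plaque protein genes Dsp (2.94 ± 0.19) and Jup (2.53 ± 0.21) differed less. Dsg4, a desmoglein of the hair shaft, had 0, 0 and 7.83 CPM in skin and no read in lung, and its call was lost without skin replicate 3.

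Of 22 tight junction genes 12 were higher in lung and 3 in skin, against 33.7% and 26.7% of all genes, with a median of -1.60. Cldn1, the main claudin of the epidermal barrier, had 464, 571 and 497 CPM in skin and 13.4, 1.71 and 1.42 CPM in lung (6.53 ± 0.74, or 8.32 without lung replicate 1), and Cldn4 had 872, 949.6 and 736 CPM in skin and 168, 116 and 88.2 CPM in lung (2.78 ± 0.33). Cldn18, Cldn7 (-6.81, or -7.53 without skin replicate 1) and Cldn3 (-5.27 ± 0.32) were higher in lung. The scaffold genes Tjp1 for ZO-1 (82.7, 68.1 and 94.8 CPM in skin, 801, 878 and 793 CPM in lung; -3.33 ± 0.18) and Cgn for cingulin (-3.93 ± 0.14) were higher in lung with narrow spread. Of 6 keratins of simple epithelia 4 were higher in lung and 1, Krt80 (1.63), in skin, against 33.7% and 26.7% of all genes. Krt7 had 5.27, 4.24 and 4.25 CPM in skin and 1812, 2107 and 2287 CPM in lung, and Krt8 had 3.11, 6.72 and 12 CPM in skin and 672, 640.0 and 643 CPM in lung, with Krt18 (-6.57) and Krt19 (-6.87) alike. Krt8 and Krt19 moved to -7.05 and -7.91 without skin replicate 3.

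Basement membrane genes were higher in lung in 14 of 21 cases and in skin in 3, with a median of -1.38. Col4a3 had 0.376, 0.707 and 1.27 CPM in skin and 2917, 3391 and 2806 CPM in lung, and Col4a4, its partner chain, was also higher in lung (-8.60 ± 0.46). The ubiquitous chains Col4a1 (162, 63.8 and 270.0 CPM in skin, 2335, 2736 and 2309.9 CPM in lung; -3.89 ± 0.45) and Col4a2 (-4.81 ± 0.35) and the proteoglycan genes Hspg2 (-3.36 ± 0.35) and Agrn (-2.62 ± 0.18) followed. Col7a1, the anchoring fibril collagen of the dermal junction, had 424, 432 and 127 CPM in skin and 20, 3.41 and 7.27 CPM in lung (5.00, or 5.92 without lung replicate 1), and Lama1 (5.19, or 6.17 without lung replicate 1 and 4.55 without skin replicate 1) and Nid1 (1.99, or 1.14 without skin replicate 3) were also higher in skin.

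Transport and detoxification genes were mostly those of lung. Of 20 ion and water transport genes 12 were higher in lung and 4 in skin (median -1.83). The 3 subunits of the epithelial sodium channel were among those higher in lung, with Scnn1a at 71.1, 84.4 and 56.9 CPM in skin and 2428, 2773 and 2616 CPM in lung (-5.20 ± 0.24), Scnn1b (-9.56 ± 0.48) and Scnn1g (-8.69 ± 0.42). The water and glycerol channel Aqp3 was among the 4 higher in skin, with 278, 501 and 487 CPM in skin and 164, 10.1 and 87 CPM in lung (2.28, or 3.10 without lung replicate 1). Of 24 genes of xenobiotic metabolism 17 were higher in lung and 2 in skin (median -2.49). Cyp2b10 had 25.5, 44.8 and 34.9 CPM in skin and 1690.2, 2176 and 2069.7 CPM in lung (-5.82 ± 0.36). Cyp2f2, of club cells, had 5.08, 2.03 and 4.13 CPM in skin and 2207, 511 and 1172 CPM in lung (-8.43, or -7.83 without lung replicate 1). Cyp1b1 (2.98, or 1.94 without skin replicate 3) was higher in skin, and Ugt1a7c (1.34) lost its call toward skin without skin replicate 3 or lung replicate 3 and was 0.57 without that skin library.

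Of 22 defence genes tested, 7 were higher in skin and 5 in lung, against 26.7% and 33.7% of all genes, with a median of 0.59, or 0.86 with genes at 0 reads at their bound, and -0.09 without skin replicate 3. The beta-defensin gene Defb6 had 57.4, 108 and 66.8 CPM in skin and no read in lung, at least 2566-fold higher in skin. Ccl27a, the chemokine that draws T cells to skin, had 207, 178 and 46.7 CPM in skin and 2.23 to 4.05 CPM in lung (5.47 ± 0.47), and Cxcl14 (613, 604 and 640.0 CPM in skin, 31, 60.2 and 58.9 CPM in lung; 3.63 ± 0.27) and Tslp (2.13 ± 0.61) were higher in skin. Lyz2, the lysozyme of type 2 cells and macrophages (-6.23 ± 0.61), and Wfdc2 (2.73, 0.972 and 2.67 CPM in skin, 531, 287 and 351 CPM in lung; -7.50 ± 0.40) were higher in lung.

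Of 17 MHC class I genes 9 were higher in skin and 5 in lung, against 26.7% and 33.7% of all genes, with a median of 0.68. In the test against a 2-fold change 6 were higher in skin and 1 in lung. Nlrc5, the transactivator of the class I genes, had 232, 185 and 115 CPM in skin and 1.01, 2.89 and 1.49 CPM in lung (6.61 ± 0.36, adjusted p = 1.8e-09), the largest difference of the list. The heavy chain gene H2-K1 had 2709, 2509 and 1304 CPM in skin and 499, 647 and 572 CPM in lung (1.92 ± 0.25), and the peptide transporter gene Tap1 had 188, 175 and 109.7 CPM in skin and 27.8, 33.8 and 27 CPM in lung (2.41 ± 0.22). Skin replicate 3 was lowest of the skin libraries in all 3 genes and still above every lung library. B2m, the shared light chain gene, overlapped, with 1203, 1345 and 783 CPM in skin and 864, 1107 and 1100.2 CPM in lung (0.12 ± 0.23, adjusted p = 0.69). The 5 genes higher in lung act in the endoplasmic reticulum, namely the trimming protease gene Erap1 (-1.68 ± 0.17), the chaperone genes Canx (-1.10 ± 0.15) and Pdia3 (-1.03 ± 0.19) and the peptide editors Tapbp (-0.58 ± 0.17) and Tapbpl (-0.79 ± 0.19). Reads that match several H2 genes are not in the counts, and for the proteasome activator Psme2 the log2 fold change was 1.62 by counts and 0.79 by RSEM estimates.

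Of 12 MHC class II genes 8 were higher in lung and 1, Ifi30, in skin (median -1.40); with a spread per group 4 were higher in lung. Cd74, the invariant chain gene, had 79.5, 64.2 and 41.9 CPM in skin and 545, 369.8 and 286 CPM in lung (-2.70 ± 0.35, adjusted p = 1e-05). Of 35 interferon-stimulated genes 19 were higher in lung and 4 in skin (median -1.03), and with a spread per group 11 and none. Ifit3 had 9.13, 1.15 and 3.88 CPM in skin and 89.3, 133 and 123 CPM in lung (-4.63, or -5.47 without skin replicate 1), and the RNA sensor gene Ddx58 was at -2.77 ± 0.19. The 4 calls toward skin were Oas2 (2.66), Zbp1 (1.76), Oas3 (1.31) and Irf7 (0.67), which had 0.884 to 32.5 CPM in skin and 0.277 to 18.7 CPM in lung. Without skin replicate 3 Zbp1 (0.70), Oas3 (0.60) and Irf7 (0.64) were no longer called. Oas3 and Irf7 also lost the call without any single lung library, and Irf7 without skin replicate 1.

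Of 29 Wnt genes 13 were higher in skin and 9 in lung, against 26.7% and 33.7% of all genes, with a median of 0.09, or -0.58 without skin replicate 3, and the ligands took opposite sides. Wnt3 (102, 151 and 59.4 CPM in skin, 0.0923 to 0.279 CPM in lung; 9.12 ± 0.63), Wnt10a (131, 167 and 59.6 CPM in skin, 0.116 to 1.78 CPM in lung; 7.26, or 8.73 without lung replicate 1) and Wnt16 (7.98, or 9.48 without lung replicate 2) were higher in skin. Wnt7a (0, 1.68 and 0.425 CPM in skin, 108, 153 and 147 CPM in lung; -7.62, or -9.06 without skin replicate 2), Wnt3a (-3.23 ± 0.47) and Wnt10b (-2.20, or -3.09 without skin replicate 3) were higher in lung. Axin2, a target and brake of the pathway, had 73.7, 50.6 and 32.3 CPM in skin and 5.44, 5.79 and 4.09 CPM in lung (3.35 ± 0.27). Lef1, a nuclear effector of hair formation, had 0, 0.619 and 41 CPM in skin and 1.11, 0.521 and 0.248 CPM in lung, so that its log2 fold change of 4.47 became -0.98 with no call without skin replicate 3, and was 5.14 without lung replicate 1.

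Of 19 Notch genes 7 were higher in skin and 4 in lung (median 0.61), against the same shares of all genes. The receptor gene Notch1 had 324, 343 and 442 CPM in skin and 57.8, 36.9 and 33.6 CPM in lung (3.11 ± 0.24), and the ligand gene Jag2 (2.79, or 3.39 without lung replicate 1) was also higher in skin. The target genes differed in direction: Nrarp was higher in skin (3.96 ± 0.31), with 3.65 to 11.1 CPM in lung, while Hes1 had 65.5, 35.1 and 61 CPM in skin and 309, 321 and 296 CPM in lung (-2.52 ± 0.20). Of 25 EGF and FGF genes tested 6 were higher in skin and 8 in lung (median -0.14), close to the 26.7% and 33.7% of all genes. Epgn, an EGF receptor ligand, had 316, 432 and 245 CPM in skin and 0.231 to 1.2 CPM in lung (9.08, or 9.99 without lung replicate 1), whereas Fgf1 had 3.39, 1.41 and 1.82 CPM in skin and 1006, 1179 and 1131 CPM in lung (-8.99 ± 0.28) and the neuregulin gene Nrg1 was at -2.98 ± 0.28. Egfr itself overlapped between the groups, with 153, 134 and 205 CPM in skin and 182, 192 and 170.3 CPM in lung (-0.14 ± 0.15, adjusted p = 0.44), but it passed toward lung without skin replicate 3.

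Of 21 cell cycle genes 20 were higher in skin and none in lung, with a median log2 fold change of 4.42, or 3.50 without skin replicate 3. Mki67, the proliferation marker, had 79.1, 74.2 and 297 CPM in skin and 3.44, 2.78 and 2.23 CPM in lung (5.74 ± 0.56, adjusted p = 5.5e-07; 4.75 without skin replicate 3). Top2a, a topoisomerase of dividing cells, had 39.7, 69 and 232 CPM in skin and 2.77, 1.36 and 3.13 CPM in lung (5.56 ± 0.62; 4.48 without skin replicate 3). Replicate 3 was highest, and the other 2 skin libraries still lay over 10-fold above lung in both genes. Pcna (0.72) had no call without skin replicate 3 (0.50), and Bub1, the gene with no call in the full set, was at 2.01 in it and at -0.38 without skin replicate 3, while it was called toward skin without skin replicate 1 or 2.

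Of 19 genes that respond to tissue dissociation 11 were higher in skin and 1 in lung (median 1.18), against 26.7% and 33.7% of all genes. Fos had 3390.2, 4303 and 2503 CPM in skin and 3296, 3815 and 3569 CPM in lung (-0.07 ± 0.30, adjusted p = 0.88), while Nr4a1 (3448, 3894 and 1494 CPM in skin, 1075, 809 and 771 CPM in lung; 1.73 ± 0.34) and the heat shock gene Hspa1b (2.98 ± 0.48) were higher in skin and Ier3 (-2.73 ± 0.24) was higher in lung. Their part in other differences was not tested. Of 18 glycolysis genes 10 were higher in skin and 1 in lung (median 0.61), against the same shares of all genes. The glucose transporter gene Slc2a1 (260.0, 301 and 170.2 CPM in skin, 93, 81.8 and 84.3 CPM in lung) was higher in skin, and Ldhb, a lactate dehydrogenase chain (-1.97 ± 0.16), in lung. Gapdh was at 4.80 by counts but 0.72 by RSEM estimates and Pgk1 at 2.47 and 0.07, so that their counts are uncertain.

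Markers of other cell types moved with some of these groups. The 12 fibroblast genes summed to 7332, 3445 and 11642 CPM in skin replicates 1, 2 and 3 and to 3446 to 4637 CPM in lung. By gene, 6 were higher in skin and 1 in lung, against 26.7% and 33.7% of all genes. In 3 of the 12 all skin libraries lay above all lung libraries (24.5% of all genes). Their median log2 fold change of 1.09 was -0.59 with skin replicate 2 alone. Col1a1, the main collagen of dermis, had 1361, 390.1 and 2179 CPM in skin and 149.9, 229 and 206 CPM in lung (2.75, or 2.14 without skin replicate 3). The 12 endothelial genes summed to 506, 176 and 155 CPM in skin and 375 to 543 CPM in lung, with Pecam1 at 87.6, 34.6 and 13.4 CPM in skin and 18.6 to 42.9 CPM in lung. Fibroblast transcripts were thus highest in skin replicate 3 and endothelial ones in skin replicate 1. The 14 T cell genes summed to 114 to 170 CPM in skin and 4.21 to 9.66 CPM in lung, most of it from Thy1 (78.4, 121 and 133 CPM in skin) and Trbc2 (25.9 to 45.6 CPM in skin), while Cd3g and Cd4 had no read in skin. Of the 14, 5 were higher in skin, 2 were higher in lung and 7 had no call. Their median log2 fold change was -1.42, or -0.67 with genes at 0 reads at their bound, and thus toward lung. The 17 myeloid genes summed to 37.2 to 83.7 CPM in skin and 1832 to 3321 CPM in lung, carried there by Lyz2 and by Csf1r (3.54 to 7.89 CPM in skin, 477 to 591 CPM in lung). By gene, 3 of the 17 were higher in skin and 8 in lung. Those higher in skin were the integrin gene Itgam (1.98, 1.06 and 1.39 CPM in skin, 0.0308 to 0.231 CPM in lung; 3.56, or 4.43 without lung replicate 2), the Fc receptor gene Fcgr3 (2.65 ± 0.67) and Cd68 (15.2, 13.6 and 14.3 CPM in skin, 7.57, 8.27 and 7.98 CPM in lung; 0.85 ± 0.21). Of the defining alveolar macrophage genes Marco and Siglecf had no read in skin and at most 1.05 CPM in lung. Chil3 stood at 0.0941, 0 and 0 CPM in skin and 15.7, 21.2 and 45.3 CPM in lung. The 5 mesothelial genes, all higher in lung, summed to 1.33 to 7.34 CPM in skin and 61.7 to 110 CPM in lung. The part of these cells in the class II, defence and basement membrane differences was not tested. The erythroid genes summed to 123, 63.5 and 101 CPM in skin and 8.39 to 13.4 CPM in lung, and all 5 tested were higher in skin. The melanocyte genes overlapped, with sums of 17.2, 7.95 and 37.6 CPM in skin and 9.10, 10.1 and 9.84 CPM in lung; 3 were higher in skin, among them Dct (3.86, 1.94 and 21.6 CPM in skin, 0.0579 to 0.217 CPM in lung), and 1, Mlana, was higher in lung, a call lost without lung replicate 2 (-2.80). The muscle genes overlapped too, with sums of 153, 77.5 and 181 CPM in skin and 84.0, 79.3 and 62.5 CPM in lung; 6 of 10 were higher in skin, among them Ckm (15.2, 4.77 and 2.06 CPM in skin, 0 to 0.0309 CPM in lung). Of 7 B cell genes tested 2 were higher in skin and 2 in lung, near the 26.7% and 33.7% of all genes. Of 6 Langerhans cell genes none were higher in skin and 2 were higher in lung, the latter near the share of all genes. Of 6 Merkel cell genes none were higher in skin and 4 were higher in lung (33.7% of all genes). Among these 4 were Krt8 and Krt18, named above as keratins of simple epithelia. Of 7 adipocyte genes tested 2 were higher in skin, near the 26.7% of all genes, and none in lung.

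**Figure D4:**
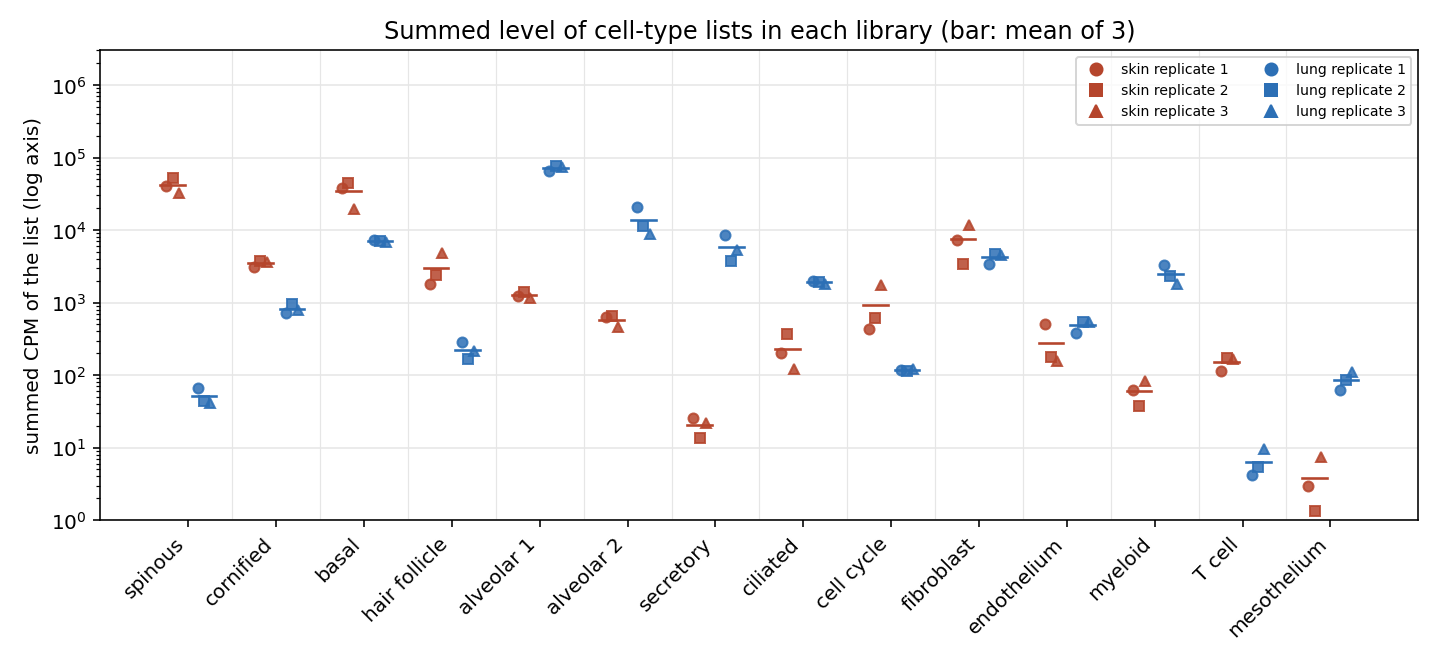
Summed CPM per library on a log axis for 14 gene lists, skin in red on the left and lung in blue on the right. Spinous genes sum to 32708 to 52068 CPM in skin and 41.5 to 67.4 CPM in lung, type 1 genes to 1146 to 1390 CPM in skin and 64822 to 75815 CPM in lung, and the fibroblast and cell cycle sums are highest in skin replicate 3.

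Some genes were ordered by kit, and kit and tissue cannot be told apart between skin and lung. In 1141 tested genes all 9 Stranded libraries lay above all 6 HyperPrep libraries, and in 1734 they lay below; 21.7% of the calls toward skin and 25.2% of those toward lung were of this kind. Krt10, Krt14, Gata3, Nlrc5, H2-K1 and Tap1 were among them on the skin side and Tjp1, Cgn, Cldn7, Pkp2 and Foxa2 on the lung side. Comparisons within a kit share the skin or lung libraries with the main comparison and give values of their own. Within the Stranded kit, skin was above thymic epithelium by 8.47 (log2) for Krt10, 4.68 for Gata3 and 0.96 for Nlrc5, while H2-K1 stood at -0.91 and Tap1 at -1.15, lower in skin. Within the HyperPrep kit, lung was above colon by 13.34 for Sftpc, 13.68 for Cldn18, 13.42 for Nkx2-1 and 1.88 for Tjp1, and by 0.67 for Cgn.

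The size of the difference also moved with transcript length. Among protein-coding genes up to 600 bases long, the median log2 fold change of skin over lung was 0.65, with 47.2% higher in skin and 14.5% higher in lung. It was 0 between 1000 and 2000 bases, -0.28 between 2000 and 4000 and -0.77 above 6000 bases, where 17.5% were higher in skin and 52.5% higher in lung. RSEM estimates gave 0.54 and -0.79 at the 2 ends. Within kits the medians spanned less, at 0.06 and -0.16 for skin over thymic epithelium and -0.33 and 0.26 for lung over colon. A group named after its values were seen, 73 ribosomal protein genes, was higher in skin in all 73 cases, with a median of 3.59 by counts and 2.39 by RSEM estimates. Its median was 1.11 for skin over thymic epithelium and -1.43 for lung over colon. The 7 mitochondrially encoded genes tested were all higher in lung (-2.05 to -3.49), and mt-Co1 had 1252, 1830.2 and 2613 CPM in skin and 17920.5, 9945 and 16597 CPM in lung. The part of kit, length and counting in the differences of single genes was not tested.

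**Figure D5:**
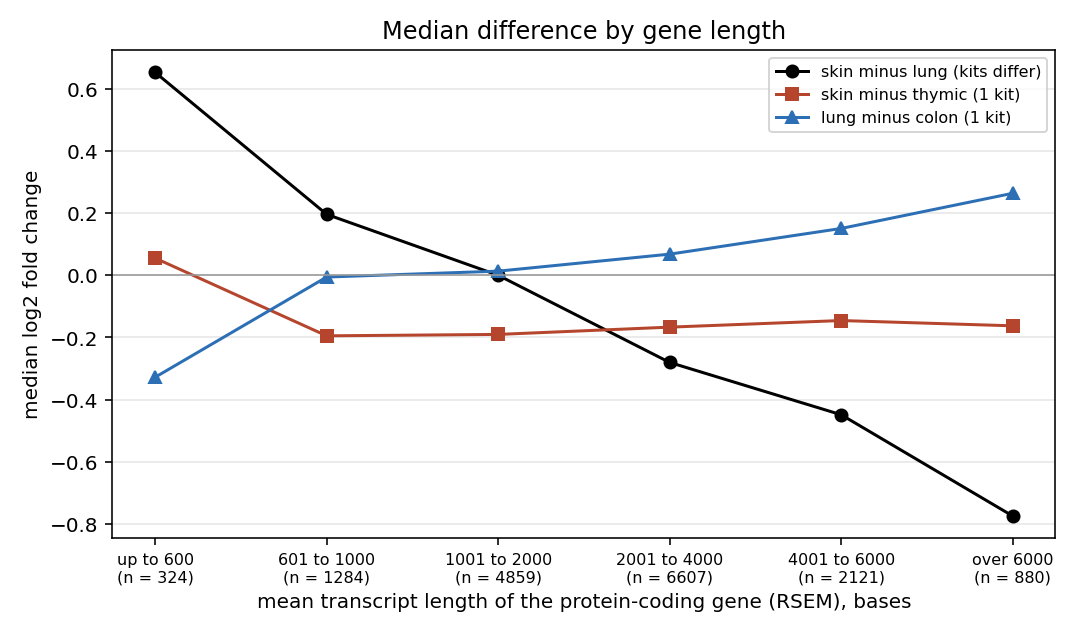
Median log2 fold change of protein-coding genes by mean transcript length in bases, for skin over lung (black), skin over thymic epithelium within the Stranded kit (red) and lung over colon within the HyperPrep kit (blue). The black line spans the most, with 0.65 in the shortest and -0.77 in the longest genes.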

How the data were processed

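Poly(A) RNA of sorted epithelial cells was sequenced in 15 libraries, of which the 3 skin and 3 lung libraries are compared here. Per the submitters' processing notes, bcl2fastq 2.20, STAR 2.5.1b and RSEM 1.2.28 were used with GRCm38; no source used here names the annotation release. The authors deposited read counts per gene, of which the sense-strand counts were used; reads that match several places are not in them. The expected counts deposited by the authors, RSEM's estimates that share such reads among genes, were rounded to whole numbers for an alternative fit. The TPM values are those the authors deposited from RSEM and serve for levels only. Of 50600 genes listed, 50376 were matched to GENCODE names, and the 4 lines of reads outside genes (24.2% to 46.9% of reads in the 6 libraries) were left out.

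The test was edgeR 4.0.16 (R 4.3.3), quasi-likelihood with TMM scaling and filterByExpr, fitted on all 15 libraries and taken as skin over lung, with p-values adjusted after Benjamini and Hochberg over 19107 genes and a threshold of 0.05. The fit shares 1 estimate of the spread per gene over all 15 libraries, although skin varied more than lung. The biological coefficient of variation was 28.1% over all 15 libraries, against 57.2% in skin and 18.3% in lung. P-values and standard errors of the main test thus rest on a smaller spread than that between the skin pools. Standard errors are the log2 fold change divided by the root of its F statistic. Genes with no read in a group were given a bound with 3 reads over that group. Where a log2 fold change is printed for such a gene, its size comes from the fit and is not measured. The same holds where leaving out a library left no read in a group. Alternatives used DESeq2 1.42.0 and limma 3.58.1. The test was checked on simulated counts.

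Members and gene lists were chosen with earlier results of these data known. Named genes were the 15 with the largest difference in each direction among called genes of at least 10 CPM in the higher group, at least 10 reads in the lower group and no overlap, the 10 highest by TPM, the markers Krt10, Sftpc and Cldn18, list members by smallest p or where their role is described, and the 10 with the widest range among skin libraries. Among the 10 highest by TPM, ribosomal, mitochondrial and unnamed genes are not all described. Promoters were those of the RefSeq table for GRCm38.p6.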

Additional observations from a re-analysis of the deposited data

How the results depend on the processing

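Over 21 alternatives the count of genes higher in skin stayed within 1.5 times of 5101 in all but 1, and that of genes higher in lung within 1.5 times of 6437 in all but 2. A test against a 2-fold change called 2882 and 3778. With a replicate block the 15 libraries gave 4866 and 6399 and the 6 libraries 3546 and 4283. The deviations of same-numbered skin and lung libraries from their group means had correlations of -0.045, -0.058 and -0.025. Those of differently numbered libraries were 0.0044 to 0.046. With deviations from a mean of 3 libraries, these values cannot show whether the pools were paired. Leaving out single libraries gave 4499 to 5159 and 6016 to 6877. No called gene had the opposite call with DESeq2, a spread per group or the 6 libraries alone, while 18 did with RSEM estimates, 7 with unstranded counts, 6 with skin replicate 2 alone and 1 without skin replicate 3. Of 531 list and named genes called, 375 kept their call in every setting that tested them. Without skin replicate 3, Tchh (1.68 in the full set, up to 2.17 when single libraries were left out) was -1.13, Lef1 (4.47, up to 5.14) was -0.98 and Lck (1.85, up to 2.31) was -0.0022. With skin replicate 2 alone, Slc7a8 was -2.11, Tchh -1.29, Ptgds -7.42, Oas3 -0.0032, Lef1 -0.048, Tcf7l1 -1.07, Nid2 -1.05, Cd3e -4.18, Dcn -0.71, Fbln1 -1.88 and Col6a1 -1.08, all above 0 in the full set; the cause was not tested. Skin libraries held fewer reads than lung libraries (12946533 against 38561052 in the shallowest of each), which limits low genes in skin. Counting error alone is covered by the bounds.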
